A study of Mus musculus with 6 samples.

Results

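Interferon-stimulated genes are the genes that cells switch on when interferon binds its receptor, and 38 of them were followed in the obstructed mouse kidney with and without Cd248. They were taken by gene symbol from a deposited table of 33679 genes. All 38 symbols were present, and all 38 exceeded the low-expression filter (0.5 FPKM on average) that left 16871 genes for testing. FPKM, the unit of all levels given here, is the number of sequenced fragments per unit of transcript length and of library size.

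Every kidney came from a mouse with unilateral ureteral obstruction, an operation in which a ureter is tied and the kidney upstream of it scars. The knockout group carries the genotype Cd248 KO and the other group is wild type, each with 3 labelled samples. Values were used from knockout replicate 1 and from wild type replicates 1, 2 and 3, and replicates 2 and 3 of the knockout were not analysed here. No unobstructed kidney is among the labelled samples, so obstruction is common to both groups. The labels used here give no strain, age or time after surgery and do not say how the allele was made or whether it was restricted to a cell type. They describe RNA pooled from fibrotic kidneys and do not say that replicates were separate animals, so p-values reflect the spread among these libraries alone, and that spread may be technical. The tissue label was checked on 10 kidney epithelium markers, all detected in every library, with Umod, the urinary protein of the thick ascending limb, at 473 FPKM in the knockout library and 340 to 640 FPKM in wild type.

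Type I interferons bind the receptor IFNAR, whose kinases JAK1 and TYK2 phosphorylate STAT proteins, STAT2 among them. With IRF9 these form the ISGF3 complex, which binds the interferon-stimulated response element (ISRE). Interferon gamma acts through another receptor with JAK1 and JAK2 and through the gamma-activated site (GAS), and it induces IRF1 and the guanylate-binding proteins (GBP) and immunity-related GTPases (IRG). In the kidney both arms are known from viral infection, lupus nephritis and injury. The comparison shows where the level of each gene stood in the kidney without Cd248.

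Most of these genes were lower in the knockout library, and most of the GBP and IRG group was higher, in part by little. Of the 38 members, 27 lay below every wild type library, where 31.2% of the 16871 tested genes did. Another 7 lay above every wild type library, where 28.0% of tested genes did, and 6 of the 7 were GBP or IRG genes. Among these, Gbp7 and Irgm1 exceeded the highest wild type library by very little. With libraries scaled to the same FPKM sum, only Gbp2, Gbp5 and Igtp lay above every wild type library. Ifit1 was 1.92 times lower and Usp18 1.98 times lower than the wild type mean, whereas Gbp2 was 1.31 times and Gbp5 1.33 times the wild type mean. By limma's test, with a threshold of 0.05 on the adjusted p, 0 of 38 members passed. Of all tested genes, 0.083% passed as lower and 0.64% as higher. These shares are so small that 0 of 38 does not set the members apart.

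In 18 members a promoter holds matches to the core letters of the response element. The promoters of 8 of these are shown as examples, picked by hand and not by a rule. Whether a factor binds there was not tested. Capitals mark every match to the ISRE core, GAAANNGAAA, read on either strand, so that a match on the opposite strand appears as its reverse complement. Each stretch holds 100 bases, written 5′ to 3′ along the gene, from RefSeq on GRCm38.p6. Distances count from the annotated start of transcription. The first 5 genes were below every wild type library and the last 3 were above every one.
Isg15, chr4:156200836-156200935, minus strand, from -117 to -18: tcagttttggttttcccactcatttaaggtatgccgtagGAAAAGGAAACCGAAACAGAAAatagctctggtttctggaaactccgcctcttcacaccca
Ifit1, chr19:34640749-34640848, plus strand, from -140 to -41: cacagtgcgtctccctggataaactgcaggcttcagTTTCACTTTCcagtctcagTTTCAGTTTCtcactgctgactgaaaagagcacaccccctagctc
Ifit3, chr19:34583345-34583444, plus strand, from -184 to -85: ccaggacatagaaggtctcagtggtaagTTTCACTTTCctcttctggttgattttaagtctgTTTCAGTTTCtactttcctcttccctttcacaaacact
Ifit3b, chr19:34607741-34607840, plus strand, from -216 to -117: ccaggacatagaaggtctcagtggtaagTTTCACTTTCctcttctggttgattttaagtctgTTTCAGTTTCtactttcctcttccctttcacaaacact
Oas1a, chr5:120907526-120907625, minus strand, from -100 to -1: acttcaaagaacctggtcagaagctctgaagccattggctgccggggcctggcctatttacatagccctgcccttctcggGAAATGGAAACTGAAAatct
Gbp2, chr3:142620559-142620658, plus strand, from -104 to -5: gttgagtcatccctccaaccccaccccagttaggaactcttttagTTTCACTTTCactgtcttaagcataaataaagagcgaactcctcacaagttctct
Gbp5, chr3:142496724-142496823, plus strand, from -210 to -111: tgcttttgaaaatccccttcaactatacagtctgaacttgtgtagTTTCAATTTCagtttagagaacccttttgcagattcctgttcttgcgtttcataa
Igtp, chr11:58199456-58199555, plus strand, from -100 to -1: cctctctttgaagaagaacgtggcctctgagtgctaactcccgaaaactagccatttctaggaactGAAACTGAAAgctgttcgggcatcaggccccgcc

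These sequences show the same core in genes that lay on opposite sides of the wild type range. In Isg15, 3 overlapping matches run together from -78 to -57. In Ifit1 there are 2 separate matches, both on the opposite strand. The Ifit3 and Ifit3b stretches are identical at 100 of 100 bases. Oas1a holds 2 overlapping matches that end at -5. Gbp2 has the letters of the first Ifit1 match, and Igtp has the letters of the second Ifit1 match on the gene's own strand.

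Of the 38 members, 31 had a promoter of 250 bases before to 50 bases after the start in the RefSeq table; Mx1, Mx2, Oas2, Usp18, Rtp4, Zbp1 and Iigp1 had none. Where a gene had several promoters, a match in any of them counted. The ISRE core was found in 18 of 31 members (58.1%), in 3.99% of all 27025 genes with a promoter, and in 3.44% of all 32851 promoters. By position of the knockout library, it was found in 12 of 22 members below every wild type library (54.5%), in 5 of 6 members above (83.3%), and in 1 of 3 members inside its range (33.3%). All 6 GBP and IRG members with a promoter held it. The GAS core, TTCNNNGAA, was found in 11 of 31 members (35.5%), in 9.55% of genes and in 8.30% of promoters. It was present in 5 of 22 members below (22.7%) and in 4 of 6 members above (66.7%), namely Gbp5, Gbp7, Igtp and Irf1, and in 2 of 3 members inside the wild type range (66.7%). The cores differ in their letters, and matches to both overlapped in Bst2. These counts describe letters in a window, and the difference between the below and above groups was not tested.

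**Figure D1:**
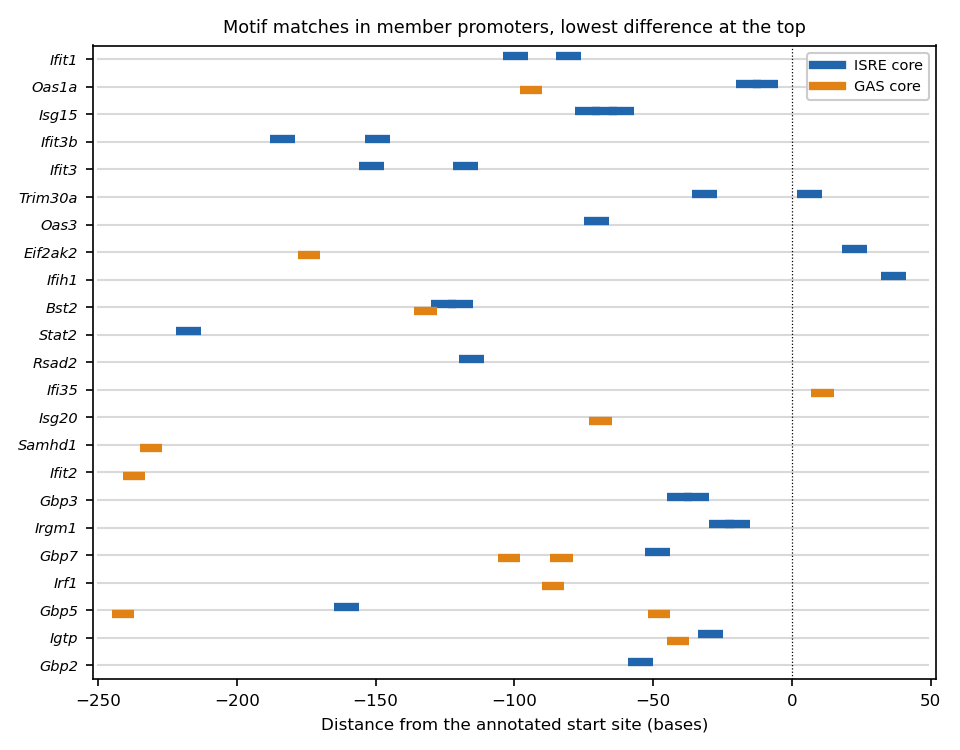
Distance in bases from the start of transcription (horizontal axis) of each match to the ISRE core and the GAS core in the members with at least 1 match (rows), from the most negative difference at the top to the most positive at the bottom. Both motifs occur in Oas1a, Eif2ak2 and Bst2, which lay below every wild type library, and in Gbp5, Gbp7 and Igtp, which lay above.

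Several library-wide facts stand beside all values below. Cd248, the gene that was targeted, was listed at 0 in the knockout library against 9.03, 9.57 and 8.78 FPKM in wild type (limma adjusted p = 0.0030), in the direction of the labels. Read depth is unknown because the table holds no counts. Immunoglobulin genes made up 5.52% of the FPKM sum in the knockout library and 0.104% to 0.191% in wild type. The FPKM sum itself was 304426 in the knockout library and between 267394 and 285322 in wild type. Scaling the libraries to the same FPKM sum moved the median difference of all tested genes from -0.006 to -0.11 on the log2 scale, a shift that bears on small positive differences. Differences are given throughout as knockout minus the mean of the wild type libraries on the log2(FPKM + 1) scale, which understates changes of low genes.

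As a set, the members had a median difference of -0.27, with 30 negative and 8 positive values. Their summed level was 404 FPKM in the knockout library and 477, 483 and 444 FPKM in wild type. The GBP and IRG genes, 7 in number, summed to 119 FPKM in the knockout library, against 102, 102 and 99.6 FPKM. The other 31 summed to 285 FPKM, against 375, 381 and 344 FPKM. Both sums of the knockout library lay outside the wild type values, on opposite sides. The median difference was 0.23 for the 7 GBP and IRG genes, all positive, and -0.35 for the other 31, of which 30 were negative. With libraries scaled to the same FPKM sum these medians were 0.10 and -0.44. The 7 above every wild type library became 3 under that scaling (Gbp2, Gbp5 and Igtp), and 31 members then lay below. Under the same scaling 49.6% of all tested genes lay below every wild type library and 13.7% above.

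**Figure D2:**
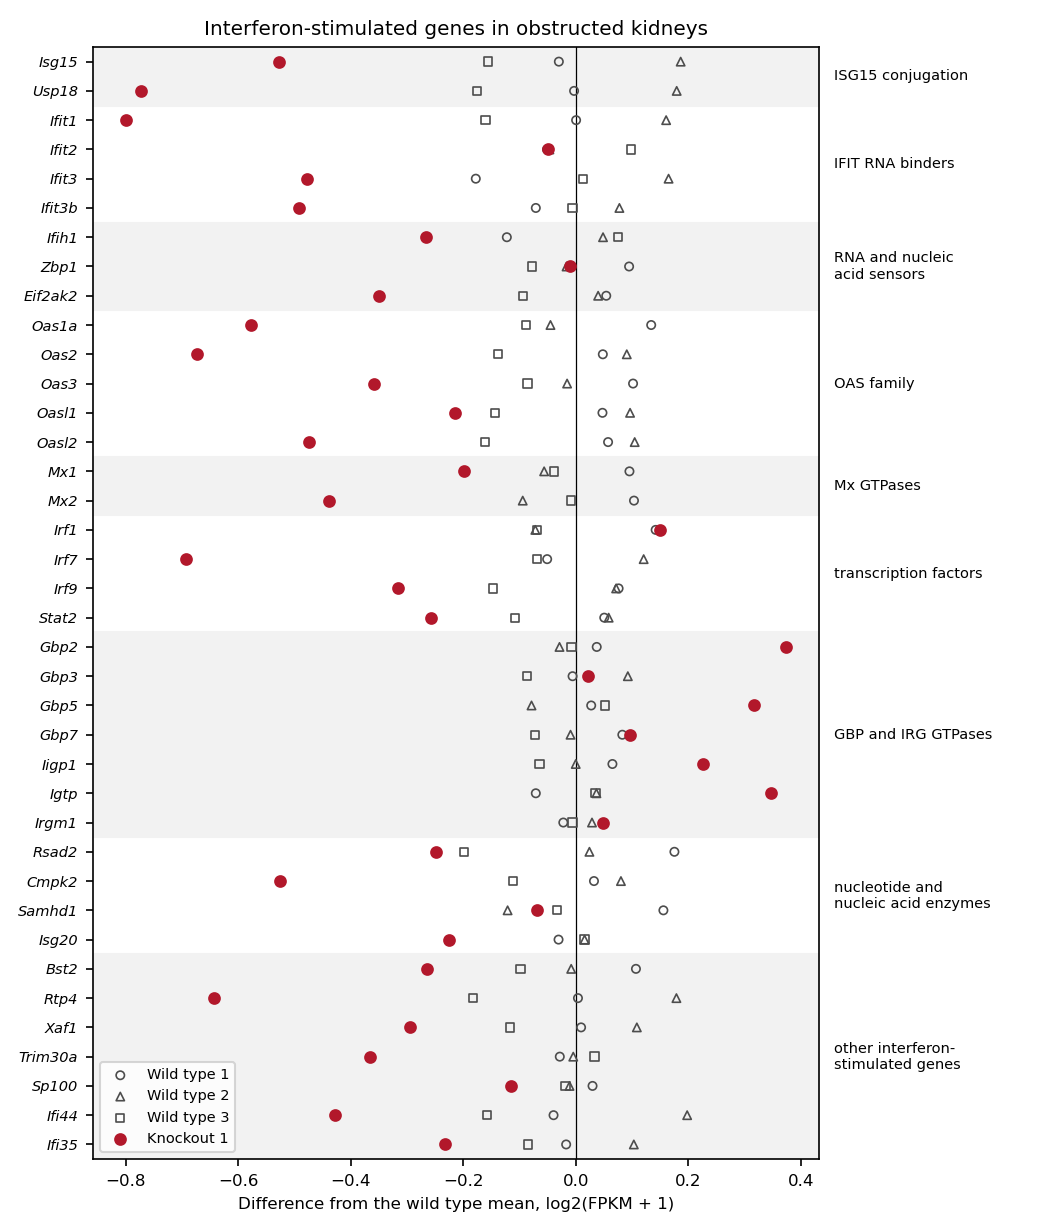
Log2(FPKM + 1) of each of the 38 members (rows, ordered by role) in each library, relative to its wild type mean, with the knockout library and the 3 wild type libraries as separate points. The knockout points lie left of all wild type points for 27 members and right of them for 7, of which 6 belong to the GBP and IRG group.

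Some of the gaps were wider than the spread between wild type libraries. In 16 members the knockout value lay below the lowest wild type value by more than the whole wild type range, and 10.7% of tested genes did so. In 4 members, Gbp2, Gbp5, Igtp and Iigp1, it lay above the highest by more than that range, as in 9.37% of tested genes. At an unadjusted limma p under 0.05 there were 14 lower members, where the share of all tested genes was 5.63%, and 3 higher members (Gbp2, Gbp5 and Igtp), where the share was 5.14%. Wild type coefficients of variation ran from 1.92% to 16.6% over the members with a median of 7.98%, beside 9.49% for all tested genes. Wild type replicate 3 was the lowest wild type library for 24 of 38 members and for 8001 of 16871 genes, and replicate 2 was the highest for 19 members.

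**Figure D3:**
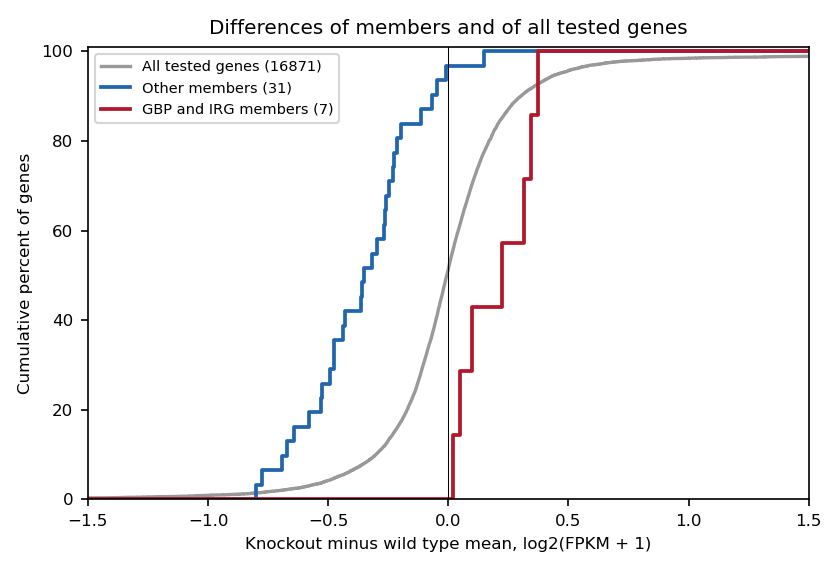
Cumulative share of genes (vertical axis) by their log2 difference, knockout minus wild type (horizontal axis), for all 16871 tested genes, the 7 GBP and IRG members and the other 31 members. The other members lie to the left of all genes with a median of -0.35, and the GBP and IRG members lie to the right with a median of 0.23.

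Transcription factors of the response were the first role group, and Irf7 had the lowest adjusted p of all members. Irf7, the factor that amplifies type I interferon production (ENSMUSG00000025498; chromosome 7, 141262706 to 141266481), had 9.66 FPKM in the knockout library against 15.63, 17.73 and 15.42 FPKM in wild type. Wild type values are in the order of replicates 1, 2 and 3 here and below. The 1 knockout value was lower than every wild type value. The wild type mean was 16.3 ± 1.28 FPKM (SD, n = 3), and the difference was -0.69 (SE 0.113, limma adjusted p = 0.191). Irf9, the DNA-binding part of ISGF3, was at 11.54 FPKM against 15.45, 15.40 and 13.09 FPKM. Stat2, its partner, was at 10.83 FPKM against 13.65, 13.73 and 12.12 FPKM. Both stood below every wild type library, with differences of -0.32 and -0.26. Irf1, which interferon gamma induces strongly, was at 20 FPKM against 19.90, 17.02 and 17.05 FPKM. It exceeded wild type replicate 1 by very little, with a difference of 0.15 (limma adjusted p = 0.710), and was inside the wild type range after quantile normalization and after scaling to the same FPKM sum.

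The IFIT genes encode a family of related proteins, of which IFIT1 binds foreign RNA ends and blocks their translation. Of the 4 genes, 3 lay below every wild type library, where 31.2% of all tested genes did. Ifit1 (ENSMUSG00000034459; chromosome 19, 34640871 to 34650009), whose promoter holds the pair of cores shown above, had 4.43 FPKM in the knockout library against 8.46, 9.57 and 7.46 FPKM. The 1 knockout value was lower than every wild type value, and the wild type mean was 8.5 ± 1.06 FPKM (SD, n = 3). The difference was -0.80 (SE 0.150, limma adjusted p = 0.254), the most negative of all members. That rank depends on the scale, because by ratio to the wild type mean Usp18 was slightly lower (0.505 against 0.521 for Ifit1). Ifit3 was at 19.35 FPKM against 24.06, 30.78 and 27.61 FPKM, and Ifit3b at 5.95 FPKM against 8.31, 9.32 and 8.74 FPKM. Both were below all wild type libraries by similar differences of -0.48 and -0.49. Their transcripts share much sequence, 51.2% of the 50-base words of Ifit3 and 44.5% of those of Ifit3b, so reads could have been split between them and both values are uncertain. Ifit2, of the same cluster, was at 12.54 FPKM against 12.52, 12.56 and 14.00 FPKM. It overlapped the wild type values, unlike its neighbours, with a difference of -0.05. All 4 lie within 34550694 to 34650009 of chromosome 19, and Cd248 lies on the same chromosome 29.5 Mb away.

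Isg15 and Usp18 belong to the pathway in which the ubiquitin-like protein ISG15 is attached to and removed from other proteins. Isg15 (ENSMUSG00000035692; chromosome 4, 156199424 to 156200818) had 12.07 FPKM in the knockout library against 17.46, 20.45 and 15.92 FPKM. The lowest wild type library was still above the knockout library. The wild type mean was 17.9 ± 2.30 FPKM (SD, n = 3), and the difference was -0.53 (SE 0.156, limma adjusted p = 0.397). Usp18, the protease that removes ISG15 and also restrains IFNAR signalling, was at 2.74 FPKM against 5.38, 6.24 and 4.66 FPKM. It too did not overlap wild type, with a difference of -0.77 (SE 0.165, limma adjusted p = 0.277).

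All 5 members of the OAS family lay below every wild type library, where 31.2% of all tested genes did. These enzymes and their relatives sense double-stranded RNA, and the catalytic ones make the 2′-5′ oligoadenylates that activate RNase L. Oas1a had 8.31 FPKM in the knockout library against 14.25, 12.47 and 12.07 FPKM, a difference of -0.58 (limma adjusted p = 0.277). Its transcripts share 57.6% of their 50-base words with Oas1g, so its value is uncertain; Oas1g was at 2.86 FPKM against 6.25, 4.64 and 4.67 FPKM. Oas2 was at 3.86 FPKM against 7.01, 7.25 and 6.04 FPKM, so the 1 knockout value lay below all wild type values. The Oas2 wild type mean was 6.77 ± 0.641 FPKM (SD, n = 3), with a difference of -0.67 (SE 0.127, limma adjusted p = 0.254). Oas3, the lowest member by mean level, was at 0.49 FPKM against 1.05, 0.89 and 0.80 FPKM. Oasl1, which limits Irf7 translation, was at 3.58 FPKM against 4.49, 4.68 and 3.81 FPKM, and Oasl2 at 9.17 FPKM against 13.70, 14.19 and 11.63 FPKM. Oasl1 stood close to the lowest wild type library and Oasl2 further from it, with differences of -0.21 and -0.47.

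The Mx genes encode dynamin-like GTPases that trap viral nucleoproteins. Mx2 had 0.93 FPKM in the knockout library against 1.81, 1.45 and 1.6 FPKM, and Mx1 was at 2.68 FPKM against 3.51, 3.06 and 3.11 FPKM. Both were below every wild type library, with differences of -0.44 (limma adjusted p = 0.413) and -0.20 (limma adjusted p = 0.610). The nucleic acid sensors were less uniform. Eif2ak2, the kinase PKR that stops translation on sensing double-stranded RNA, was at 9.65 FPKM against 13.10, 12.96 and 11.73 FPKM. Ifih1, the RNA sensor MDA5, was at 4.25 FPKM against 4.80, 5.53 and 5.65 FPKM. Zbp1, a sensor of Z-form nucleic acid that triggers necroptosis, was at 5.27 FPKM against 5.74, 5.24 and 4.98 FPKM. The first pair lay below wild type, with differences of -0.35 and -0.27, and Zbp1 overlapped it with a difference of -0.01.

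Among enzymes of nucleotides and nucleic acids, Cmpk2 was the furthest from wild type. Cmpk2, a mitochondrial nucleotide kinase next to Rsad2 on chromosome 12, had 3.42 FPKM in the knockout library against 5.51, 5.73 and 4.89 FPKM. It did not overlap wild type, with a difference of -0.53 (SE 0.117, limma adjusted p = 0.293). Rsad2, or viperin, which makes a chain-terminating nucleotide, was at 8.30 FPKM against 11.47, 10.23 and 8.62 FPKM, so the neighbour lay only slightly below the lowest wild type library (difference -0.25). Isg20, an exonuclease, was at 3.29 FPKM against 3.91, 4.07 and 4.07 FPKM. Samhd1, which degrades nucleotides, was at 14.13 FPKM against 16.69, 13.60 and 14.51 FPKM, inside the wild type range.

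All 7 of the remaining members of mixed function were below every wild type library, as were 31.2% of all tested genes. The 7 differences ran from -0.64 to -0.12. Rtp4, a chaperone of receptors that also limits interferon responses, had 8.60 FPKM in the knockout library against 14.04, 15.98 and 12.22 FPKM, the largest of these differences (SE 0.162, limma adjusted p = 0.333). Rtp4 shares 11.6% of its 50-base words with another gene, so its level carries some uncertainty. Trim30a, a regulator of innate immune signalling, was at 8.93 FPKM against 11.54, 11.75 and 12.09 FPKM. Bst2, or tetherin, which holds budding virus at the cell surface, was at 50.59 FPKM against 65.76, 60.64 and 56.91 FPKM. It was the member with the highest mean level, and neither it nor Trim30a overlapped wild type (differences -0.27 and -0.37). Xaf1 was at 4.58 FPKM against 5.89, 6.38 and 5.31 FPKM, and Ifi44 was at 2.20 FPKM against 3.19, 3.94 and 2.86 FPKM. Ifi35 was at 14.46 FPKM against 16.94, 18.50 and 16.11 FPKM, and Sp100, a nuclear body protein, was at 8.71 FPKM against 9.73, 9.43 and 9.38 FPKM. In Sp100 the gap was small, a difference of -0.12, although the wild type values lay close together.

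The GBP and IRG genes encode GTPases that attack the vacuoles of intracellular pathogens and are classic targets of interferon gamma. Gbp2 (ENSMUSG00000028270; chromosome 3, 142620602 to 142638008) had 36.45 FPKM in the knockout library against 28.66, 27.33 and 27.75 FPKM. The wild type values lay close together and the knockout value stood above all of them. The wild type mean was 27.9 ± 0.680 FPKM (SD, n = 3), and the difference was 0.37 (SE 0.082, limma adjusted p = 0.291). Gbp5, which promotes inflammasome assembly, was at 4.0 FPKM against 3.09, 2.80 and 3.16 FPKM, a difference of 0.32 (limma adjusted p = 0.439). Igtp, or IRGM3, was at 20.70 FPKM against 15.25, 16.51 and 16.49 FPKM, a difference of 0.35 (limma adjusted p = 0.347). Both stood above all wild type libraries under every scaling tried, as did Gbp2.

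The other 4 GTPases were nearer to wild type. Iigp1, or Irga6, was at 12.40 FPKM against 10.99, 10.46 and 9.96 FPKM, a difference of 0.23 (limma adjusted p = 0.502). It stood above wild type, but not after scaling to the same FPKM sum. Gbp7 was at 11.25 FPKM against 11.13, 10.38 and 9.89 FPKM, and Irgm1, a regulator of the other IRG proteins, was at 17.66 FPKM against 16.78, 17.42 and 16.98 FPKM. Gbp3 was at 16.64 FPKM against 16.31, 17.53 and 15.37 FPKM, inside the wild type range. The differences of Gbp7, Irgm1 and Gbp3 were 0.10, 0.05 and 0.02 and became -0.03, -0.08 and -0.11 with the same FPKM sum, so their direction depends on the scaling. Sequence shared with other genes reached 12.7% of 50-base words for Gbp7 and 11.8% for Igtp, so these levels carry some uncertainty. The 4 Gbp members lie together on chromosome 3, from 142493978 to 142638008.

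**Figure D4:**
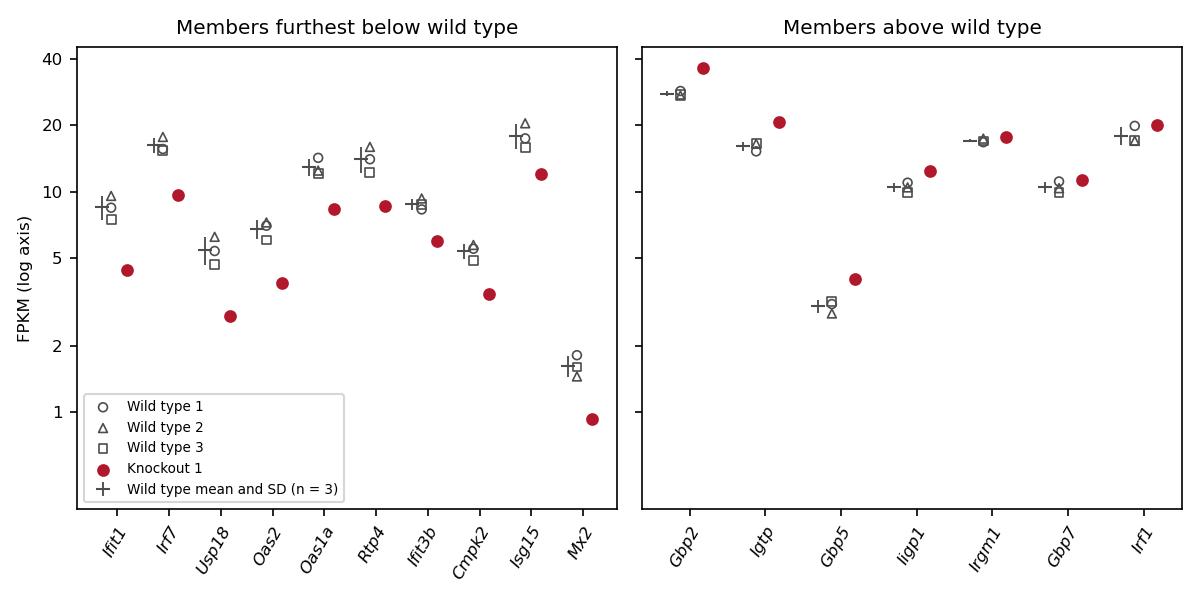
FPKM on a log axis (vertical) of the 10 members furthest below the wild type range (left) and the 7 members above it (right), with the knockout library as a filled point, the 3 wild type libraries as open symbols and a cross for their mean and SD. Ifit1, Irf7 and Usp18 are lower in the knockout library than in every wild type library, and Gbp2, Gbp5 and Igtp are higher than in every one.

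In the authors' deposited table, 14 members had a p-value of at most 0.05, and no member was marked significant. Among the 16871 genes tested here, that table gave such a p-value to 7.76% and marked 1.4% as significant. The lowest q-values of members in the authors' deposited table were 0.02 for Irf7 (ratio of knockout to wild type 0.59), 0.04 for Ifit1 (ratio 0.52) and 0.05 for Oas2 (ratio 0.57). For Gbp2 the authors' deposited table gave a ratio of 1.31 and a q-value of 0.45. The authors' mark does not follow the q-value alone. Ifitm1, which is not a member, was marked at the same q-value as Irf7, with a ratio of 0.50.

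Upstream of these genes, the ligands were near the limit of the table. Of 21 interferon genes looked up, 4 were listed, none passed the filter, and the other 17 were not analysed here. Ifng, interferon gamma, had 0.36 FPKM in the knockout library against 0.36, 0.24 and 0.20 FPKM, so the knockout value equalled the highest wild type value. Ifnz was between 0.07 and 0.14 FPKM, and Ifna5 and Ifnk were listed at 0 in all 4 libraries. The 6 receptor genes were tested and 0 passed limma's test in either direction, with differences from -0.14 to -0.002. Ifnar1 was at 19.89 FPKM against 23.65, 21.78 and 20.48 FPKM and Ifngr2 at 20.34 FPKM against 22.89, 21.41 and 20.69 FPKM. These were the 2 receptor genes of 6 below every wild type library, both by little, near the 31.2% of all tested genes that were. Ifnar2, Ifngr1, Ifnlr1 and Il10rb were inside the wild type range.

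Of the kinases and STATs of the chain, 4 are given here and 0 passed limma's test. Jak1, Jak2 and Stat3 lay below every wild type library, with differences of -0.16, -0.17 and -0.18, and Tyk2 lay inside the range. Among 15 regulators of interferon induction, 3 were below every wild type library, 4 were above and 0 passed, counts no higher than the shares of all tested genes (31.2% below and 28.0% above) would give. Of 6 negative feedback genes, 2 were below, 0 were above and 0 passed. Socs3, an inhibitor of JAK signalling, was at 17.27 FPKM against 28.18, 25.48 and 24.65 FPKM and did not overlap wild type (difference -0.57, limma adjusted p = 0.256).

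**Figure D5:**
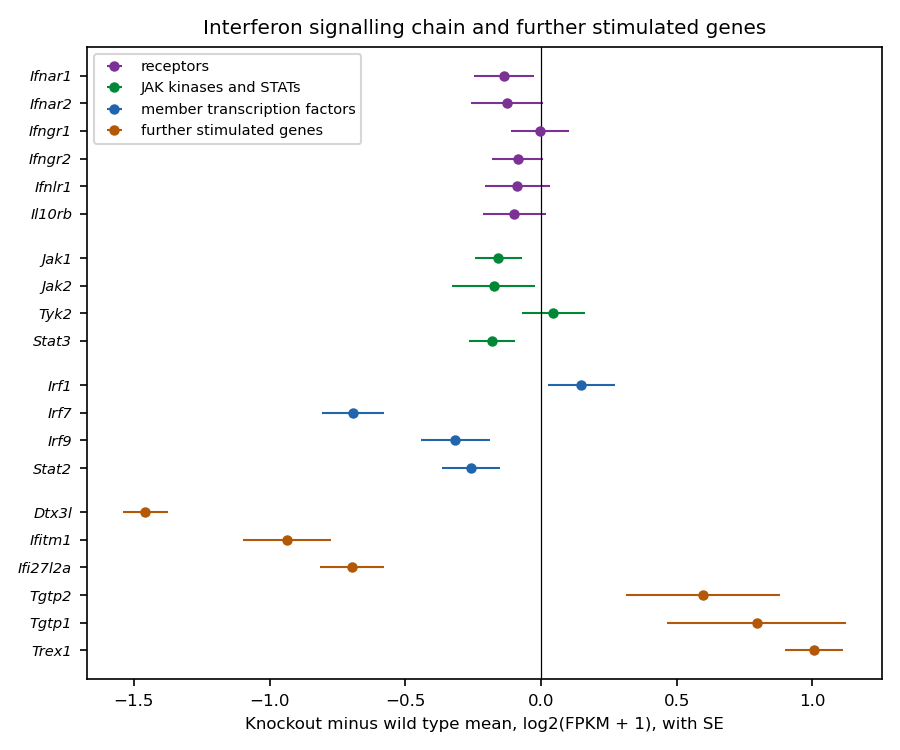
Log2 difference, knockout minus wild type (horizontal axis), of the receptor genes, 4 JAK kinases and STATs, the 4 member transcription factors and 6 further interferon-stimulated genes, with 1 point per gene and bars of 1 SE. The receptors lie between -0.14 and -0.002, Irf7 lies at -0.69, Dtx3l lies furthest left at -1.46 and Trex1 furthest right at 1.0.

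A further 70 interferon-stimulated genes outside the members were examined, and 66 passed the filter. Of these, 36 lay below every wild type library, beside 31.2% of all tested genes, and 15 lay above, beside 28.0%. Their median difference was -0.12. In limma's test 1 was lower and 0 were higher, and at an unadjusted p under 0.05 there were 13 lower and 7 higher, beside 5.63% and 5.14% of all tested genes. The gene that passed was Dtx3l, a ubiquitin ligase that works with PARP9 in interferon signalling. Dtx3l had 2.93 FPKM in the knockout library against 9.94, 9.80 and 9.62 FPKM, a wide gap beside tightly grouped wild type values (difference -1.46, SE 0.083, limma adjusted p = 0.0132). That call was lost without wild type replicate 1, 2 or 3 (limma adjusted p = 0.0944, 0.0964 and 0.109) and with immunoglobulin genes left out of the fit (0.0596).

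The next most negative differences were those of Ifitm1 and Ifi27l2a. Ifitm1, a membrane protein that blocks virus entry, was at 10.31 FPKM against 22.41, 22.12 and 17.69 FPKM (difference -0.94, limma adjusted p = 0.224); the authors' deposited table marked it significant with a q-value of 0.02. Ifi27l2a was at 41.23 FPKM against 68.40, 71.93 and 62.10 FPKM (difference -0.70, limma adjusted p = 0.210). Neither overlapped wild type. In the other direction Trex1, an exonuclease that removes cytosolic DNA, was at 5.70 FPKM against 2.23, 2.50 and 2.29 FPKM. It was well above all wild type libraries, with a difference of 1.0 (SE 0.106, limma adjusted p = 0.0586). The IRG genes Tgtp1 and Tgtp2 were above wild type as well, at 27.09 FPKM against 20.14, 15.70 and 11.05 FPKM and at 20.50 FPKM against 16.72, 13.77 and 9.98 FPKM. They are near-identical copies, so reads could have been split between them and both values are uncertain. Their wild type values were widely spread, and the limma adjusted p was 0.501 and 0.546.

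Markers of several cell types stood outside the wild type range, and their part in these differences was not tested. Beside the counts that follow, 31.2% of all tested genes lay below every wild type library and 28.0% lay above. In bulk tissue, fewer cells of a type and less RNA per cell cannot be told apart. Fibroblast and myofibroblast markers were below every wild type library in 9 of 9 genes, with a summed level of 363 FPKM against 763 to 946 FPKM. Endothelial markers were below in 8 of 8 genes, with a sum of 149 FPKM against 192 to 242 FPKM. These 2 lists were on the same side of wild type as most members.

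Most lymphoid markers were on the same side as most GBP and IRG genes. T and NK cell markers were above every wild type library in 8 of 9 tested genes, with a sum of 39.8 FPKM against 21.7 to 32.5 FPKM. Only 1 of them, Gzma, exceeded wild type by more than the whole wild type range. Cd3e was at 1.88 FPKM against 1.84 FPKM in wild type replicate 1. Marker positions after scaling to the same FPKM sum are not given here. B cell markers were above in 4 of 4 tested genes, with a sum of 15.4 FPKM against 4.53 to 6.01 FPKM. Plasma cell markers were above in 7 of 8 tested genes, with a sum of 429 FPKM against 75.7 to 98.8 FPKM, and Tnfrsf17 was listed at 0 in wild type replicates 1 and 2. The exception, Sdc1, was below every wild type library, at 18.52 FPKM against 32.06, 23.99 and 19.24 FPKM. Conventional dendritic cell markers were above in 4 of 6 genes, with a sum of 28.8 FPKM against 21.3 to 27.9 FPKM. Macrophage and monocyte markers were above in 3 of 10 genes, near the 28.0% of all tested genes, and inside the range in 7. The 3 were Ly6c2, Ccr2 and Cx3cr1. Ly6c2 stood furthest above, at 7.44 FPKM in the knockout library against 2.52, 2.56 and 2.35 FPKM. The sum of the 10 markers was 1162 FPKM against 792 to 1259 FPKM. Lyz2 was its largest part, at 662 FPKM against 634, 373 and 775 FPKM. The 5 tested neutrophil markers were all inside the range, with a sum of 29.8 FPKM against 16.7 to 79.3 FPKM, and Ly6g was listed at 0 in wild type replicates 1 and 2. Of plasmacytoid dendritic cell markers, 4 of 8 were tested, 1 below and 1 above, and their summed level of 102 FPKM against 68.3 to 104 FPKM came mostly from Klk1, which kidney tubules also make. Siglech, the more specific marker, was at 0.40 FPKM against 0.48, 0.26 and 0.43 FPKM, within the wild type values.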

How the data were processed

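RNA of obstructed kidneys was extracted with Trizol and enriched on oligo(dT) beads, per the labels' protocols. The names cutadapt 1.9, FastQC, HISAT2 2.0.4 and mm10 come from the submitters' processing notes; what program and annotation lie behind the expression values is not stated there. Per the file headers, the deposited table holds FPKM per gene and library. It also holds the authors' fold change as a ratio, with its log2 in another column, and the authors' p-values and q-values follow; these were used only where named. Values allowed no recovery of whole reads: in each library at most 25.0% of the values examined fell within 0.1 of a whole read, where 20% would with no steps.

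Groups and replicate numbers came from sample titles. The design was planned for all labelled samples of both groups and was carried out with 1 knockout library against 3 wild type libraries. Here log2(FPKM + 1) was fitted with limma 3.58.1 (R 4.3.3) with a mean-variance trend, two-sided, for the 16871 genes that averaged 0.5 FPKM or more, with Benjamini-Hochberg adjustment over all of them and a threshold of 0.05. The fit had 2 residual and 2.32 prior degrees of freedom, all spread comes from wild type, and the lone knockout library is taken to vary alike. Members and gene lists were chosen with earlier results of these data known. Members furthest outside the wild type range (up to 10 in each direction) and their role families are given in every library; of further interferon-stimulated genes, those passing the test or, of those outside the wild type range in a direction, the 3 with the largest difference are named. Oas1g and Socs3 were named after their values were seen. Gene positions and shared 50-base words come from GENCODE M21 on GRCm38, the assembly that mm10 names, and promoters from RefSeq on GRCm38.p6. A gene of the signalling chain is not reported here.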

Additional observations from a re-analysis of the deposited data

How the results depend on the processing

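In all, 10 settings other than those of the report were run: a pseudocount of 0.1 FPKM, no filter, a mean of at least 1 FPKM (which left out Oas3), the same FPKM total, quantile normalization, immunoglobulin genes left out, no mean-variance trend, and each wild type library left out in turn. No member passed limma's test in any of them (lowest adjusted p = 0.131), and 11 to 23 members had an unadjusted p under 0.05. Of 379 values of member differences, 371 kept their direction and 8, in 6 members, did not. With the same FPKM total, the difference of Gbp3 was -0.11, of Gbp7 -0.027, of Irgm1 -0.080 and of Tyk2 -0.077, and 3 members lay above every wild type library and 31 below, among them the 27 of the report and Ifit2, Irgm1, Samhd1 and Zbp1. Under it the median of the members was -0.39, of the GBP and IRG genes 0.10 and of the others -0.44, and 49.6% of all genes lay below and 13.7% above. With quantile normalization Gbp3 was at -0.003, and 5 members lay above. With 1 wild type library left out, the median of the members ran from -0.33 to -0.24 and of all genes from -0.025 to 0.011. In those fits Ifit2 ran from -0.075 to 0.0, Gbp3 from -0.022 to 0.068, Zbp1 from -0.049 to 0.038, Samhd1 from -0.13 to 0.008, Ifngr1 from -0.046 to 0.043 and Tyk2 from -0.002 to 0.10. Over all genes, 122 passed in the report's fit, 39 with the lower pseudocount, 205 with no filter, 2 without immunoglobulin genes and 45 to 73 without a wild type library. Dtx3l, the 1 further gene to pass, did not pass without immunoglobulin genes (0 passed) or without any 1 wild type library (0 to 0 passed). The cause of these changes was not tested. No paired analysis was possible because the labels do not say that a replicate number marks a shared animal, litter, batch or day. The knockout library could not be left out, since it is alone. Read depth is unknown, so counting error is not separable from the spread between libraries.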

Other observations

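Chosen after their values were seen, the genes of MHC class I antigen presentation among the further interferon-stimulated genes were Psmb8, Psmb9, Tap1, Nlrc5 and B2m. Of these 5, none passed limma's test, 4 stood above every wild type library, as did 28.0% of all tested genes, and B2m was inside the wild type range. Psmb9, a subunit of the immunoproteasome, was at 8.90 FPKM against 7.20, 6.97 and 6.99 FPKM in wild type, with a difference of 0.30 on the log2 scale (limma adjusted p = 0.374). Psmb8, of the same complex, was at 19.25 FPKM against 16.72, 15.52 and 14.78 FPKM. Tap1, which carries peptides to MHC class I, was at 14.71 FPKM against 12.24, 12.09 and 10.94 FPKM. In these 3 genes the knockout value was the highest. Nlrc5, an activator of class I genes, was at 6.66 FPKM against 6.26, 5.55 and 4.97 FPKM, and B2m, the class I light chain, was at 959 FPKM against 978, 863 and 912 FPKM.

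Of the 3 chemokines on that list, Cxcl9 was at 7.87 FPKM against 5.79, 4.38 and 4.64 FPKM, above every wild type library (difference 0.59, limma adjusted p = 0.372). Cxcl10 was at 8.60 FPKM against 8.45, 8.67 and 8.71 FPKM, inside the wild type range (difference -0.001, limma adjusted p = 0.997). Cxcl11 was under the filter, at 0.30 FPKM against 0.03, 0.25 and 0.14 FPKM.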
